A study of Mus musculus with 18 samples.

Results

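The genes described here encode the enzymes that write and maintain methylated cytosine in DNA and those that oxidise it: *Dnmt1*, *Dnmt3a*, *Dnmt3b*, *Dnmt3l*, *Uhrf1*, *Tet1*, *Tet2* and *Tet3*. They were chosen by name, as 8 of the 20440 gene names in the deposited tables. All 8 have an entry among the reprogrammed fibroblasts, and 7 have entries among the stages of blood development, where *Dnmt1* was not analysed here. RNA-seq was carried out on mouse ESCs and on the populations differentiated from them in vitro, which were MES (mesoderm, Bry:GFP+ Flk1-), HB (hemangioblast, Bry:GFP+ Flk1+), HP (CD41+ hematopoietic progenitors) and MAC (CD11b+ macrophages). There were 2 replicates per stage, all of strain 129 and from 1 ESC line with a GFP reporter in the *Brachyury* gene, grown on fibroblast feeder cells before differentiation. The remaining 8 libraries came from mouse embryonic fibroblasts (MEFs) of embryonic day 14.5, also of strain 129. These were untreated (uFIB) or given the factors *Tal1* (also called Scl) and *Lmo2* (SL), all of *Tal1*, *Fli1*, *Gata2* and *Lmo2* (SFGL), or *Fli1*, *Gata2* and *Lmo2* (FGL), with 1 library per treatment at day 12 and 1 at day 21. The MEFs were wild type or carried a doxycycline-inducible *Tal1* cassette, and the labels do not say which of these each library was. The labels do not give the time in culture of the stages.

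Methylated cytosine in mammals lies mainly in CpG dinucleotides. *Dnmt3a* and *Dnmt3b* place the mark on unmethylated DNA, and *Dnmt3l*, which has no catalytic activity, stimulates them and is known for its role in germ cells and ESCs. After DNA replication the new strand lacks the mark, and *Uhrf1* binds this hemimethylated DNA and brings in *Dnmt1*, which copies the pattern. *Tet1*, *Tet2* and *Tet3* oxidise methylcytosine, after which the base is diluted by replication or excised by Tdg and repaired. In blood, *Dnmt3a* and *Tet2* are known as genes that are recurrently mutated in myeloid disease.

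Sequence upstream of the members' start sites was read from RefSeq, in windows from 250 bases before to 50 bases after each annotated start (GRCm38.p6). All 8 members had at least 1 window. The sequences below are shown because the members differ in CpG content there. Those of *Uhrf1* and *Dnmt1* are shown because both genes hold the same 8-base form of the E2F motif. It is in 1 of the 2 windows of *Uhrf1* and in 1 of the 3 windows of *Dnmt1*. E2F factors are known regulators of S phase genes, and the part of the motif in the levels of these members was not tested. The letters searched on both strands were TTTCGCGC, present in 0.323% of all 32817 windows, and TTTGGCGC, present in 0.515%. In each of the following pair of stretches of 30 bases, 5′ to 3′ on the strand of the gene, capitals mark the motif, which is read on the opposite strand in *Dnmt1*. The *Uhrf1* stretch lies within the gene's annotated span and outside its exons (chr17:56304117-56304146, plus strand). The *Dnmt1* stretch lies in an exon of the gene (chr9:20952824-20952853, minus strand).
Uhrf1: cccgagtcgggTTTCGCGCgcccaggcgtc
Dnmt1: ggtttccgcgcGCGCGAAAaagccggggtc

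The motif began at position -185 from the annotated start site in that *Uhrf1* window and at -219 from that in the *Dnmt1* window, where negative positions are upstream. TTTGGCGC was also found in the *Dnmt1* window. None of the windows of *Dnmt3a*, *Dnmt3b*, *Dnmt3l*, *Tet1*, *Tet2* or *Tet3* held either form. The octamer ATGCAAAT (1.74% of all windows), and AGATAA and TGATAA, which are forms of the GATA motif (11.2% and 9.06%), were in no window of any member. These are matches of letters and not binding sites. In the stage table the *Tet1* locus ends at 62880014 on chromosome 10, before the RefSeq start at 62887324, so the *Tet1* window may not be that of the transcripts counted.

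CpG content differed among the members and among the starts of 1 gene. *Dnmt3a* has 3 windows, with 46, 47 and 18 CpGs in 300 bases, and 98.3%, 98.6% and 70.3% of all windows hold fewer. The *Tet2* window holds 57 CpGs, more than in 99.8% of all windows. The 3 windows of *Dnmt3l* hold 6, 4 and 3 CpGs, and 43.6%, 31.4% and 23.3% of all windows hold fewer. The annotated *Dnmt3a* gene begins upstream of its windows, at 3801559, so its first start here is the first that has a window. In the 250 bases before that *Dnmt3a* start (chr12:3806730-3806979, plus strand), before its downstream start (chr12:3891494-3891743, plus strand) and before a start of *Dnmt3l* (chr10:78049592-78049841, plus strand), the CpGs are in capitals.
Dnmt3a, first start: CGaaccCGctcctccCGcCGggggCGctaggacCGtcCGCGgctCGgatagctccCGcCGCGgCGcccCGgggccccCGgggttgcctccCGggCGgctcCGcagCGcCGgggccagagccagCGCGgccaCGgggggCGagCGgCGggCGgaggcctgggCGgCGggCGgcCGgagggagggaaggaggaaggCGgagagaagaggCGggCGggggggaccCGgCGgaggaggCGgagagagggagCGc
Dnmt3a, downstream start: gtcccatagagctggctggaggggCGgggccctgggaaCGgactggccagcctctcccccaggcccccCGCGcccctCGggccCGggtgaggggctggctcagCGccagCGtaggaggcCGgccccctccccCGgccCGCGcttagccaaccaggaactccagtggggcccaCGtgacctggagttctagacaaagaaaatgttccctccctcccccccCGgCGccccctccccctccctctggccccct
Dnmt3l: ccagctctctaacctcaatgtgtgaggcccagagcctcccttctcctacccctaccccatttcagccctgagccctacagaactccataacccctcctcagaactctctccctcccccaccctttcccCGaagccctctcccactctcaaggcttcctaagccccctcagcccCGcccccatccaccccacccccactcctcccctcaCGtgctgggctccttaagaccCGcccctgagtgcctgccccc

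These 250 bases hold 38 CpGs at the first *Dnmt3a* start, 15 at the downstream start and 4 at the *Dnmt3l* start. The members lie on 7 chromosomes in these RefSeq annotations, with *Dnmt1* at chr9:20907206-20959888, *Dnmt3a* at chr12:3801559-3914443, *Dnmt3b* at chr2:153649411-153687730, *Dnmt3l* at chr10:78042287-78063622, *Uhrf1* at chr17:56303337-56323486, *Tet1* at chr10:62804570-62887469, *Tet2* at chr3:133463677-133545136 and *Tet3* at chr6:83362373-83457208.

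All levels are FPKM (fragments per kilobase of transcript, scaled to the mapped reads of the library), so they can be compared between genes within a column. Between the stages the totals differed, with the MAC column at 381686 FPKM and the others at 180554 to 201844, so differences at the step into MAC are also given after scaling each stage to its upper quartile. The stage values combine the replicates into 1 value per start site, which were summed per gene, and they therefore have no error and no test. A difference between stages is given on log2(FPKM + 1) and is named where it was at least 2-fold on that scale for a gene with at least 1 FPKM in either stage. The 2 tables were normalized separately, so levels were not compared across them. The files hold no read counts, so the depth behind each value is unknown. Markers fixed for the stages were highest in their own stage for 5 of 5 in ESC, 2 of 4 in MES, 3 of 4 in HB, 5 of 5 in HP and 5 of 5 in MAC. Markers of fibroblasts, the feeder cells of the ESCs, summed to 6.42 FPKM in ESC and to between 0.927 and 31.8 in the other stages. A column of hemogenic endothelium (HE), the stage between HB and HP, was left out, as it belongs to no sample of the series.

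In ESCs the members with high levels were *Dnmt3l*, *Uhrf1*, *Dnmt3b* and *Tet1*, and in MAC only *Dnmt3a* stayed above 10 FPKM among the 7 members listed. *Dnmt3a* and *Dnmt3b* changed places as the more abundant de novo enzyme between HP and MAC. *Tet1* was the most abundant Tet gene in ESC, MES and HB, and *Tet3* in HP and MAC. *Uhrf1* held between 49.8 and 79.3 FPKM from ESC to HP and was near 1 FPKM in MAC.

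**Figure D1:**
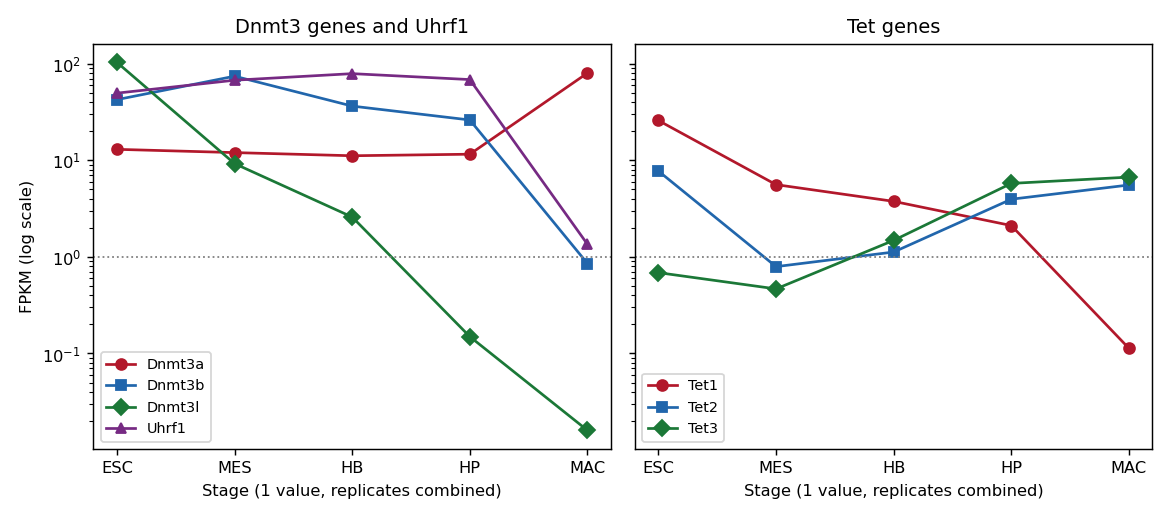
FPKM of the 7 members with entries at each stage, on a log axis, with the Dnmt3 genes and Uhrf1 on the left and the Tet genes on the right. Each point is 1 deposited value that combines the replicates, the dotted line is 1 FPKM, and lines join the stages for reading only. Dnmt3a ended at 80.5 FPKM in MAC, where Dnmt3b, Dnmt3l, Uhrf1 and Tet1 were at their lowest.

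The level of *Uhrf1*, the reader of hemimethylated DNA, was 49.8 (ESC), 67.8 (MES), 79.3 (HB), 68.8 (HP) and 1.35 (MAC) FPKM. The first 4 stages were close to one another and MAC stood far below them. From MES to HP the gene was above 96.0% (MES), 96.0% (HB) and 96.4% (HP) of all genes with at least 1 FPKM, and in MAC it was above 3.33% of them. Between HP and MAC it differed by -4.89 on log2(FPKM + 1), and 0.185% of the genes compared were lowered by as much or more.

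The genes of the S phase and proliferation list were lower at the same step. Of the 17 with at least 1 FPKM, 16 were at least 2-fold lower in MAC than in HP and none was 2-fold higher, with a median difference of -3.14 against 0.45 for all genes. Of all 10819 genes compared, 13.9% were lower by as much and 33.4% higher. After scaling to the upper quartile 16 of the list were lower, against 24.7% of all genes. The members of this list with the largest differences were *Ccna2*, a cyclin of S phase and mitosis, at 59.1 FPKM in HP and 1.47 in MAC, and *Top2a*, a topoisomerase of dividing cells, at 104 and 3.37. The part of proliferation in the *Uhrf1* difference was not tested. In these bulk samples, fewer cells of a type and less RNA per cell cannot be told apart.

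Among the de novo enzymes, *Dnmt3b* had 42.6 (ESC), 74.6 (MES), 36.6 (HB), 26.3 (HP) and 0.855 (MAC) FPKM. It was highest in MES and all but absent from MAC, a ratio of 87.3 between those stages. *Dnmt3a* had 13.03, 12.1, 11.2 and 11.6 FPKM up to HP and 80.5 in MAC. It was thus level over the first 4 stages, its values differing by less than 2 FPKM, and 6.94 times as high in MAC as in HP, or 4.17 times after scaling to the upper quartile. Of the sum of these 2 genes, *Dnmt3b* made up 76.6%, 86.1%, 76.6% and 69.3% from ESC to HP, stage by stage, and 1.05% in MAC. A share within a column does not depend on how the columns were scaled. Their sum was 37.9 FPKM in HP and 81.4 in MAC, a ratio of 2.15 as deposited and of 1.29 after scaling to the upper quartile.

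**Figure D2:**
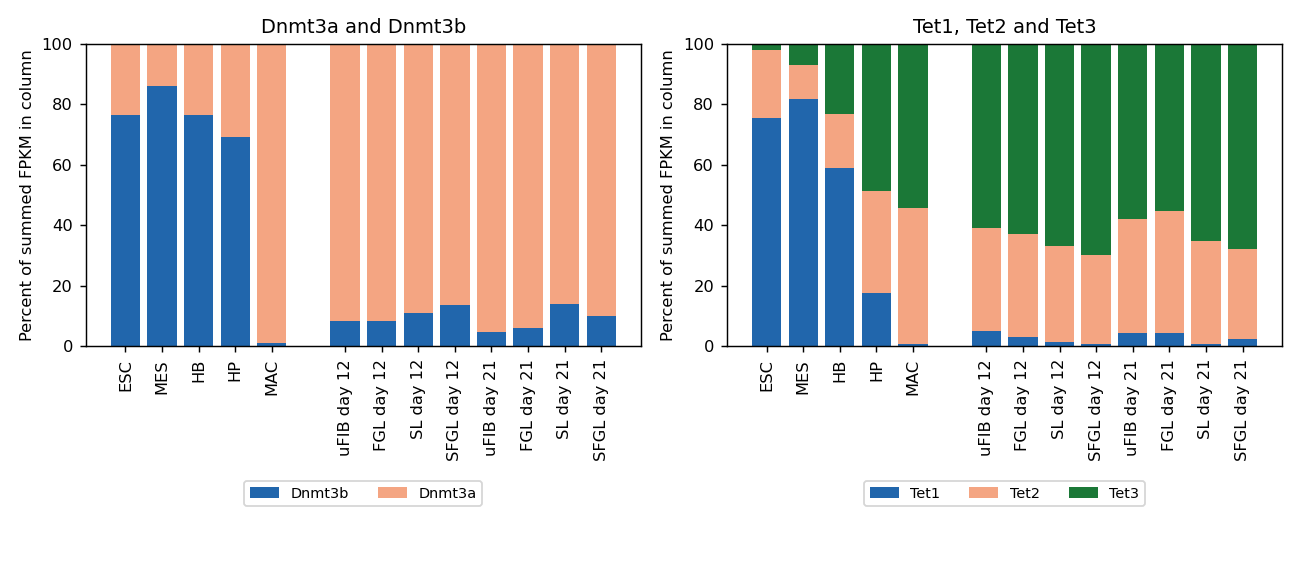
Each member's percentage of the summed FPKM of its family in every stage (5 columns on the left) and MEF library (8 columns on the right), for Dnmt3a with Dnmt3b and for the 3 Tet genes. Dnmt3b fills 69.3% to 86.1% of its pair from ESC to HP and 1.05% in MAC, and Tet1 goes from 75.4% of the Tet sum in ESC to 0.912% in MAC.

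*Dnmt3a* has 3 start-site entries in the stage table, which give the level of transcripts grouped by where they start. The first entry was at most 0.684 FPKM in any stage. The second had 2.23 (ESC), 4.82 (MES), 3.26 (HB), 4.14 (HP) and 54.5 (MAC) FPKM. The third had 10.1, 7.24, 7.93, 7.03 and 26.0 FPKM in the same order. The second entry therefore went from 17.1% of the gene in ESC and 35.7% in HP to 67.7% in MAC, while both entries were higher in MAC than in any other stage. The table gives no start position for each entry, so the entries could not be paired with the *Dnmt3a* starts whose sequences are shown above. Cufflinks divides reads that transcripts share, which makes the value of 1 entry less certain than the sum of the gene.

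*Uhrf1* has 2 entries, of which the first carried 35.5, 66.1, 77.9, 67.7 and 1.25 FPKM from ESC to MAC. The second entry had 14.3 FPKM in ESC, then 1.74, 1.46 and 1.17 up to HP and 0.0977 in MAC. It was 28.8% of the gene in ESC and 1.71% to 7.22% in the other stages. The labels list other processing tools for ESC, so the stage and its processing cannot be told apart in this share. *Dnmt3l* also has 2 entries, and 1 of them held all or nearly all of the gene in each of the 5 stages.

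**Figure D3:**
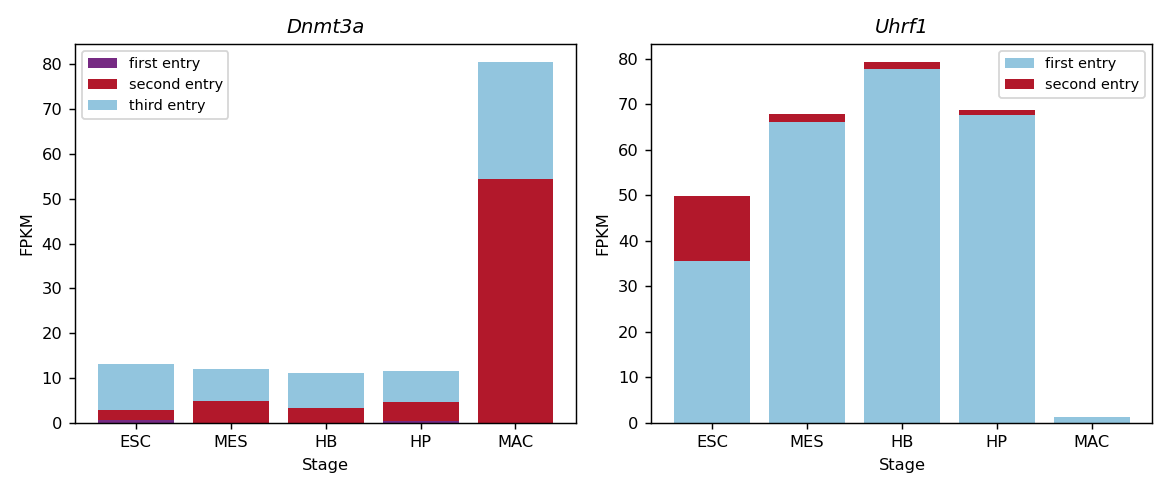
FPKM of each start-site entry of Dnmt3a (left) and Uhrf1 (right), stacked to the sum of the gene at each stage, with entries in the order of the table. The second Dnmt3a entry makes up 67.7% of the gene in MAC, and the second Uhrf1 entry 28.8% of the gene in ESC, for which the labels list other processing tools.

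*Dnmt3l*, the cofactor without catalytic activity, was the most abundant in ESC of the 7 members with stage values. It had 104 FPKM there, and 9.27 (MES), 2.59 (HB), 0.149 (HP) and 0.0160 (MAC) FPKM later. Each stage was below the one before, and the gene went from above 97.9% of all genes with at least 1 FPKM in ESC to under 1 FPKM in HP and MAC. In the stage table its entry spans the neighbouring gene *Aire* as well, which overlaps it on the opposite strand. *Aire* itself had 0.776 FPKM in ESC and at most 0.0554 in the other stages.

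The 3 Tet genes followed different orders. *Tet1*, which is known for its high expression in ESCs, had 25.9 (ESC), 5.61 (MES), 3.77 (HB), 2.12 (HP) and 0.113 (MAC) FPKM. Like *Dnmt3l* it was lower at each stage than at the one before. *Tet2* had 7.76 FPKM in ESC, 0.794 in MES, then 1.12, 3.96 and 5.57 in the order HB, HP, MAC. As deposited it was thus high at both ends of the series and lowest in MES. After scaling to the upper quartile *Tet2* was lower in MAC than in HP, as given below. *Tet3* had 0.688, 0.467, 1.49, 5.78 and 6.72 FPKM, with the 3 early stages below HP and MAC.

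Of the summed Tet level, *Tet1* made up 75.4%, 81.7%, 59.1%, 17.8% and 0.912% from ESC to MAC. *Tet3* made up 2.00%, 6.79%, 23.3%, 48.7% and 54.2%, and *Tet2* 22.6%, 11.5%, 17.6%, 33.4% and 44.9%. The sum itself was 34.4, 6.87, 6.38, 11.9 and 12.4 FPKM.

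From ESC to MES, 3 of the 6 members that reached 1 FPKM in either stage were at least 2-fold lower and none was 2-fold higher, where 14.2% of the 10606 genes compared differed by as much, 6.94% of them higher and 7.3% lower. These were *Dnmt3l*, *Tet2* and *Tet1*, with differences of -3.35, -2.29 and -2.03 on log2(FPKM + 1). The labels list other processing tools for ESC, so in any difference from ESC the stage and its processing cannot be told apart. *Dnmt3b* (0.79), *Uhrf1* (0.44) and *Dnmt3a* (-0.10) differed by less than 2-fold, and *Tet3* (-0.20) was under 1 FPKM in both stages. The median of all genes was 0.00. Among the genes that assist the methyltransferases, 1 of 14 was at least 2-fold higher and 2 were lower. The higher one was *Uhrf2*, the paralogue of *Uhrf1*, at 9.34 FPKM in ESC and 30.5 in MES. The lower ones were *Zfp57*, which protects methylation at imprinted regions, at 40.8 and 10.1 FPKM, and its corepressor *Trim28* at 479 and 230 FPKM. Of germline genes known to be silenced by promoter methylation, 5 of the 8 with at least 1 FPKM were at least 2-fold lower, led by *Rhox5* with 5.34 FPKM in ESC and 0.166 in MES and *Tex19.1* with 19.8 and 3.0. None of that list was higher. Of 18 genes of a list that joins base excision genes with regulators and cofactor enzymes of the Tet proteins, 1 was higher (*Idh2*, a mitochondrial enzyme that makes their cofactor, at 13.9 and 31.5 FPKM) and 4 were lower, led by *Dppa3*, a protein of the oocyte and early embryo that limits *Uhrf1*, at 12.9 and 0.901.

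From MES to HB, 2 of the 7 members were at least 2-fold lower and none was higher, against 5.83% of 10211 genes in either direction (2.53% higher and 3.3% lower). *Dnmt3l* differed by -1.52, and *Dnmt3b* by -1.01, just past the limit. *Tet3*, at 0.467 FPKM in MES and 1.49 in HB, was inside the limit at 0.76 because the added pseudocount of 1 FPKM is larger than its level in MES. The other members differed by between -0.47 (*Tet1*) and 0.24 (*Tet2*), and the median of all genes was 0.13. None of the 14 methylation partners, the 7 readers of methylated DNA or the 17 S phase genes compared reached 2-fold. Of 15 genes of the list of base excision and Tet regulators, the stress-induced *Gadd45g* was higher, at 1.18 FPKM in MES and 16.7 in HB, and *Prdm14*, a regulator of the pluripotent state, was lower, at 2.29 and 0.468.

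From HB to HP, *Tet2* and *Tet3* were at least 2-fold higher and *Dnmt3l* was lower, 3 of 7 members where 17.7% of 10505 genes differed by as much (8.86% higher and 8.8% lower). *Tet3* differed by 1.45 and *Tet2* by 1.22, and 4.93% and 6.62% of the genes compared were raised by as much or more. *Dnmt3l* differed by -1.64. *Dnmt3a*, *Dnmt3b*, *Uhrf1* and *Tet1* lay between -0.61 and 0.05, where the median of all genes was -0.13. *Mbd2*, a reader that binds methylated promoters, was the 1 of 8 readers that was 2-fold higher, at 5.60 FPKM in HB and 15.0 in HP. *Zfp57* was lower, at 13.1 and 2.24 FPKM, and no S phase gene reached 2-fold.

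From HP to MAC, *Dnmt3a* was at least 2-fold higher, and *Uhrf1*, *Dnmt3b* and *Tet1* were lower. They were 4 of the 6 members that reached 1 FPKM in either stage, and *Dnmt3l* did not reach it. Of 10819 genes 47.3% were called, 33.4% higher and 13.9% lower. The differences were 2.69 for *Dnmt3a*, -4.89 for *Uhrf1*, -3.88 for *Dnmt3b* and -1.48 for *Tet1*. *Tet2* (0.40) and *Tet3* (0.19) were close to the median of all genes, which was 0.45. After scaling to the upper quartile 19.5% of all genes were higher and 24.7% lower, the median became -0.21, *Dnmt3a* differed by 1.98, and the small differences of *Tet2* and *Tet3* turned to -0.20 and -0.44. *Tet3* was then highest in HP and not in MAC, while the other 6 members kept the stage in which they were highest.

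The lists of genes that act with the members had shares called at this step of 6 in 14, 3 in 9 and 12 in 16, against the 47.3% of all genes. Of 14 methylation partners, 5 were at least 2-fold lower, led by *Hells*, a chromatin remodeller needed for methylation, with 26.4 FPKM in HP and 1.43 in MAC, and *Lig1*, the ligase of replicating DNA, with 27.6 and 1.93. *Ehmt2*, a histone H3K9 methyltransferase, was the 1 that was higher, at 30.9 and 62.9 FPKM, right at the limit of 2-fold. After scaling to the upper quartile it differed by 0.28, and 8 partners were lower and none higher. Of 9 readers, 3 were higher and none lower, with *Mbd2* at 15.0 and 42.5 FPKM and *Zbtb4* at 0.368 and 4.37. After the scaling *Mbd2* differed by 0.73, inside the limit, and 1 reader was higher (*Zbtb4*, by 1.48) and 1 lower. Of 16 base excision genes and Tet regulators, 8 were higher, led by the cytidine deaminase *Apobec1* at 2.32 and 230 FPKM, and 4 were lower, led by the uracil glycosylase *Ung* at 13.4 and 1.71, and after the scaling 5 were higher and 4 lower.

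In the MEFs the maintenance pair was higher in the SL and SFGL libraries than in uFIB, and *Tet3* was higher by less than 2-fold. The values of the cofactor *Dnmt3l* were also higher there, from under 1 FPKM in uFIB. The de novo enzymes *Dnmt3a* and *Dnmt3b* did not pass the test. No member passed in FGL or between the days. The question was how the 3 factor combinations changed the transcripts of fibroblasts. Differences were tested with limma on log2(FPKM + 1) over all 8 libraries, with terms for treatment and day, for the 12517 genes with at least 1 FPKM in at least 2 libraries, and p-values were adjusted over all of them by the Benjamini-Hochberg method. The labels name no separate cultures, and the libraries of a treatment are of different days. The p-values therefore measure the spread that the treatments did not share between the days, and not that between replicate cultures. *Tet1* was below the filter, which left 7 members.

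**Figure D4:**
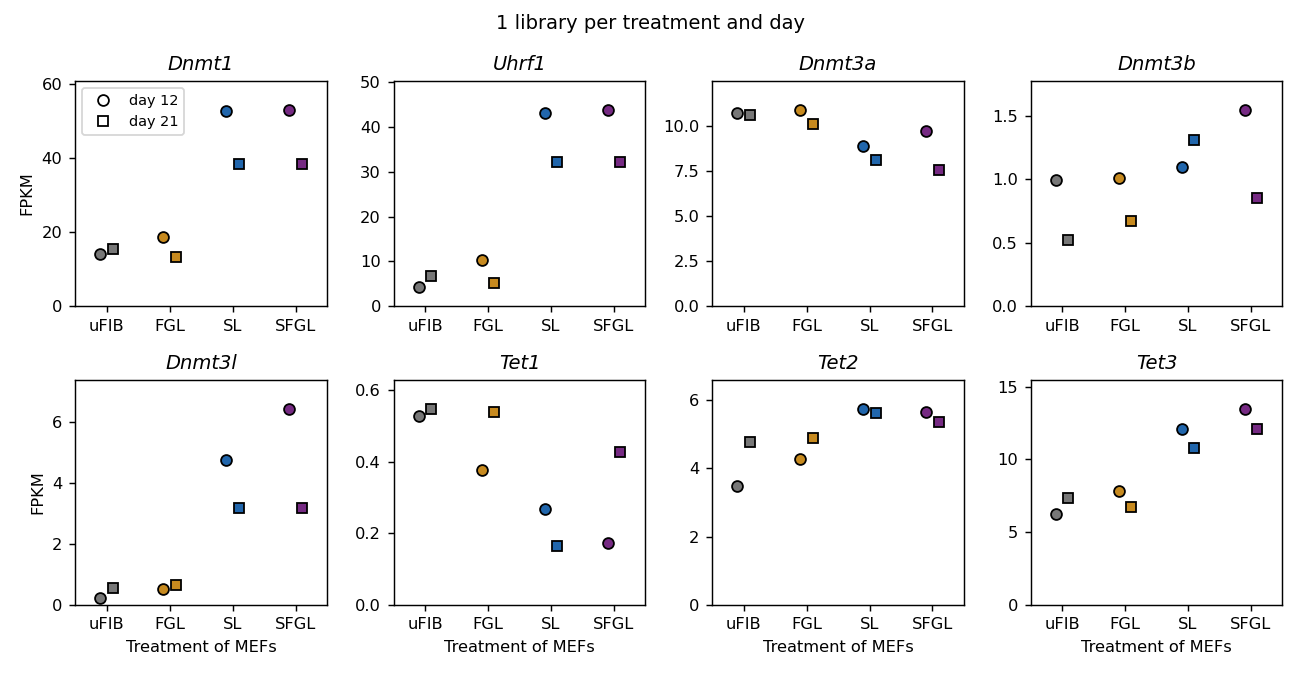
FPKM of the 8 members in the MEF libraries by treatment, with circles for day 12 and squares for day 21. Each point is 1 library, and each panel has its own axis from 0. At day 12 Uhrf1 had 4.30 FPKM in uFIB and 43.1 in SL, and Dnmt3a had 10.7 in uFIB and 8.90 in SL.

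At day 12 the level of *Dnmt1*, the maintenance methyltransferase, was 14.04 (uFIB), 52.7 (SL), 53.0 (SFGL) and 18.7 (FGL) FPKM. At day 21 it was 15.5, 38.3, 38.4 and 13.4 FPKM in the same order. Within a day SL and SFGL had nearly the same level. The difference from uFIB was 1.55 in SL (SE 0.17, adjusted p = 0.00186, limma) and 1.55 in SFGL (SE 0.17, adjusted p = 0.00133, limma). In SL, 7.64% of all genes tested were raised by as much or more, and in SFGL 8.0%.

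*Uhrf1* had 4.304 (uFIB), 43.1 (SL), 43.7 (SFGL) and 10.2 (FGL) FPKM at day 12, and 6.63, 32.3, 32.2 and 5.10 FPKM at day 21. At day 12 SL was 10.01 times uFIB and at day 21 it was 4.87 times. The FGL library of day 12 was 2.37 times uFIB, and that of day 21 was 0.769 times uFIB. The difference from uFIB was 2.59 in SL (SE 0.32, adjusted p = 0.00234, limma) and 2.60 in SFGL (SE 0.32, adjusted p = 0.00173, limma). Of all genes tested, 3.39% were raised by as much or more in SL and 3.64% in SFGL.

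*Dnmt3l* had 0.224 (uFIB), 4.77 (SL), 6.44 (SFGL) and 0.535 (FGL) FPKM at day 12, and 0.548, 3.20, 3.18 and 0.636 at day 21. The uFIB and FGL libraries were all under 1 FPKM and the SL and SFGL libraries all over 3 FPKM. The difference from uFIB was 1.84 in SL (SE 0.30) and 2.02 in SFGL (SE 0.30). *Dnmt3l* passed the filter on low values only through the SL and SFGL libraries, so its call is no support and these values are a description. Without that filter it was called in both as well. The overlapping gene *Aire* was at most 0.201 FPKM in any library.

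The de novo enzymes did not pass the test in either treatment. *Dnmt3a* had 10.7 (uFIB), 8.90 (SL), 9.74 (SFGL) and 10.9 (FGL) FPKM at day 12, and 10.6, 8.10, 7.53 and 10.1 at day 21. Its differences from uFIB of -0.30 in SL (SE 0.12, adjusted p = 0.0775, limma) and -0.28 in SFGL (SE 0.12, adjusted p = 0.0812, limma) did not pass the threshold. *Dnmt3b* lay between 0.526 and 1.54 FPKM in all 8 libraries. At day 12 and day 21 it had 0.997 and 0.526 FPKM in uFIB, 1.09 and 1.31 in SL, and 1.54 and 0.856 in SFGL. Its differences of 0.33 in SL (SE 0.19) and 0.32 in SFGL (SE 0.19) had an adjusted p of 0.199 and 0.211 in limma. *Dnmt3b* made up 4.73% to 13.96% of the sum of both genes in the MEF libraries.

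*Tet3* had 6.23 (uFIB), 12.1 (SL), 13.5 (SFGL) and 7.83 (FGL) FPKM at day 12, and 7.32, 10.8, 12.1 and 6.70 at day 21. The difference from uFIB was 0.68 in SL (SE 0.13, adjusted p = 0.00962, limma) and 0.83 in SFGL (SE 0.13, adjusted p = 0.00398, limma). In SL this call was lost without the uFIB library of day 12 (0.49, adjusted p = 0.0519, limma) and without the SL library of day 12 (0.62, adjusted p = 0.0690, limma). *Tet2* had 3.48, 5.74, 5.66 and 4.29 FPKM in uFIB, SL, SFGL and FGL at day 12 and 4.77, 5.63, 5.34 and 4.88 at day 21. The *Tet2* differences of 0.40 in SL (SE 0.14, adjusted p = 0.0639, limma) and 0.35 in SFGL (SE 0.14, adjusted p = 0.0803, limma) did not pass. *Tet1* lay between 0.163 and 0.547 FPKM in the 8 libraries and made up 0.897% to 5.14% of the Tet sum.

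**Figure D5:**
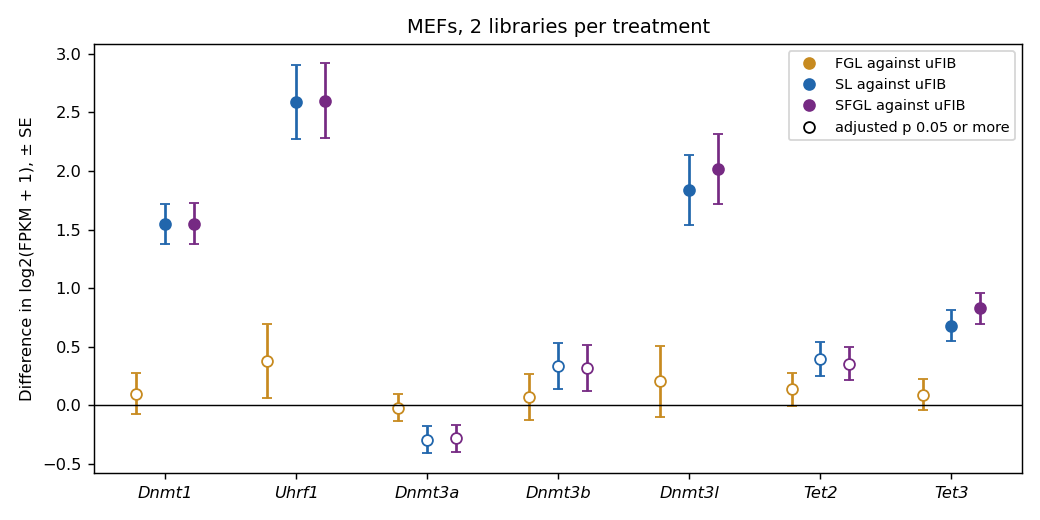
Difference from uFIB in log2(FPKM + 1) for the 7 members tested, for FGL, SL and SFGL, with error bars of 1 SE from limma. Each treatment has 1 library at day 12 and 1 at day 21, so the bars are not the error of replicate cultures. Filled points have an adjusted p under 0.05, and those of Dnmt3l are no support, as it passed the filter only through the SL and SFGL libraries. Uhrf1 differs most, by 2.59 in SL and 2.60 in SFGL, and none of the FGL points is filled.

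In SL, 4 of the 7 members tested were called, all higher, and 52.3% of all genes tested were called, 25.3% higher and 27.0% lower. In SFGL the same 4 were called, where the share of all genes was 58.7% (27.8% higher and 30.9% lower), so the number of members called was near the background in both. Each count includes *Dnmt3l*, which passed the filter on low values only through the SL and SFGL libraries and whose call is therefore no support. Leaving out 1 library moved the share of all genes called in SL by over 1.5 times, to 30.2% without the SL library of day 12 and 31.0% without the uFIB library of day 12, each with 3 of 7 members called, and to 32.7% without the SL library of day 21, with 4 of 7. With the added condition of at least 2-fold, chosen after seeing the data, 3 members were called in each treatment, *Dnmt3l* again among them. The shares of all genes were 23.6% in SL and 29.1% in SFGL. The median difference of the members tested was 0.68 in SL and 0.83 in SFGL, and that of all genes was -0.03 and -0.04. SL and SFGL share the same uFIB libraries.

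The S phase and proliferation genes moved in the same libraries. In SL 17 of 18 were called higher and in SFGL 18 of 18, and none was lower. *Mki67*, a marker of dividing cells, had a mean of 6.81 (uFIB), 52.9 (SL) and 47.3 (SFGL) FPKM, and the replication helicase subunit *Mcm5* had 5.33, 36.6 and 35.2. The median difference of the list was 1.92 in SL and 1.86 in SFGL. The summed level of 7 fibroblast markers was 4667 FPKM at day 12 in uFIB against 1491 (SL) and 1275 (SFGL), and 3129 at day 21 against 835 (SL) and 602 (SFGL). All 7 were at 1 FPKM or more in each library. The 4 red cell markers summed to 0.194 and 0.289 FPKM in uFIB, with *Hba-a1* and *Epb4.2* listed at 0 in both libraries, and to between 519 and 955 in SL and SFGL. Their part in the differences of the members was not tested.

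The other lists are read against the same shares of all genes, 52.3% in SL and 58.7% in SFGL, and none of them exceeded these. Of the 15 methylation partners tested, 5 were higher and none lower in SL, and 6 were higher and 2 lower in SFGL. *Lig1* differed by 1.65 in SL (SE 0.11, adjusted p = 0.00106, limma) and by 1.52 in SFGL (SE 0.11, adjusted p = 0.000602, limma). *Hells* had a mean of 3.26 FPKM in uFIB and 10.8 in SL, and *Pcna*, the replication clamp that binds *Dnmt1*, 43.7 in uFIB and 120 in SFGL. *Zfp57* was lower in SFGL, at 3.03 FPKM against 8.75. Of the 10 readers, 4 were higher and 1 lower in SL, and 3 were higher and 2 lower in SFGL, with *Mbd4*, a glycosylase of mismatched thymine, at 2.23 (uFIB), 4.72 (SL) and 5.05 (SFGL) FPKM and *Zbtb4* at 17.3, 10.1 and 7.96. Of 17 base excision genes and Tet regulators tested, 3 were higher and 4 lower in SL and 4 were higher and 4 lower in SFGL. *Ung* rose in both, from 1.48 FPKM to 5.45 and 6.32, and *Idh1*, which makes the cofactor of the Tet enzymes, fell from 127 to 54.2 and 45.3. None of the 18 germline genes known to be silenced by promoter methylation reached the filter.

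In FGL no member was called, and neither were the S phase genes. Only 2 of 12517 genes, 0.016%, were called in limma, *Lmo2* and *Gata2*, which were among the factors given. At an unadjusted p under 0.05 there were 482 genes, 3.85%. The members' differences from uFIB ran from -0.02 (*Dnmt3a*) to 0.38 (*Uhrf1*), with adjusted p-values of 0.943 to 0.989 in limma. The libraries labelled FGL differed from each other: at day 12 *Tal1*, which FGL lacks, had 7.04 FPKM and the red cell markers summed to 317 FPKM, while at day 21 *Tal1* had 0.0705, the red cell markers 0.215 and *Fli1*, one of the factors given, 3.35 FPKM against 3.02 in uFIB. *Uhrf1* in the same libraries was 2.37 times uFIB at day 12 and 0.769 times at day 21. The calls of the members in SL and SFGL did not change without both libraries labelled FGL.

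Between day 21 and day 12 no member was called, against 2.46% of all genes tested (1.13% higher and 1.33% lower at day 21). *Dnmt1* was lower at day 21 by -0.31 (SE 0.12, adjusted p = 0.198, limma) and higher at day 21 in 1 of the 4 treatments. The differences of the other members tested ran from -0.30 (*Uhrf1*) to 0.11 (*Tet2*), with adjusted p-values of 0.322 to 0.654 in limma.

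The genes whose pattern was most like each member were found by Pearson's r over 13 values, 5 stages and 8 MEF libraries, on log2(FPKM + 1) centred within each table, among 10969 genes with at least 5 FPKM in some column. The columns share libraries and scaling, so r is a description. For *Uhrf1* these were *Top2a* (r = 0.997), *Chaf1a* (0.993) and *Aurka* (0.992). For *Dnmt3a* they were *Fbxw17* (0.992), *Tmco3* (0.991) and *Slc35f6* (0.990), and for *Dnmt3b* they were *Tgif2* (0.983), *Psip1* (0.982) and *Trim71* (0.967). For *Dnmt3l* they were *Pkp3* (0.980), *Utp14a* (0.968) and *Hmgxb4* (0.963). For *Tet1* they were *Slc35f2* (0.981), *AY358078* (0.976) and *Phc1* (0.971), for *Tet2* *Slc35a4* (0.967), *E2f1* (0.954) and *Pias1* (0.945), and for *Tet3* *Ubash3b* (0.982), *Fbxo9* (0.975) and *Dgkd* (0.975). Among the members themselves the values of *Dnmt3a* and *Dnmt3b* had the lowest r, -0.94 over the same 13 values, with -0.96 over the 5 stages and -0.27 over the 8 MEF libraries. For *Dnmt3a* with *Uhrf1*, r was -0.85 over the 13 values, -0.9987 over the stages and -0.73 over the MEF libraries. The r over the stages of both pairs includes MAC, which stood far from the other stages. There *Dnmt3a* had 80.5 FPKM, *Dnmt3b* 0.855 and *Uhrf1* 1.35, while *Dnmt3a* lay between 11.2 and 13.03 FPKM up to HP. *Dnmt1* was not in this comparison because it lacks stage values.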

How the data were processed

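RNA-seq values were used for 18 samples, 10 of the stages and 8 of MEFs, grouped by their labels. The members and gene lists were chosen with earlier results of these data known. The values are FPKM as the authors deposited them, on mm10. For the stages, the authors' supplemental methods give SHRiMP alignment of colour-space reads, unique reads only, removal of duplicates with Picard, and Cufflinks, with 1 value per start site for the combined replicates. Per the labels, TopHat and Cufflinks were used for the MEFs, Bowtie and HOMER are listed for ESC, and no versions are given, so the processing of ESC and the stage cannot be told apart. Removal of duplicates limits high values. For the stages the authors made coverage tracks for each strand, but whether reads were counted by strand is not given in the sources used here, so *Dnmt3l* with *Aire*, *Dnmt3b* with *Dnmt3bos* and *Tet3* with *B230319C09Rik*, which overlap on opposite strands, are less certain.

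Start-site rows (22089) were summed to 20066 gene names in the stage table. The MEF table had 20268 gene names. In the stages, 1 value column with no sample was not used. MEFs were tested with limma 3.58.1 (limma-trend) in R 4.3.3 on log2(FPKM + 1), 3 residual degrees of freedom, 2-sided, called at an adjusted p under 0.05. The residual holds what the treatments do not share between the days. The script was tested on simulated data of the SL comparison over 12517 genes, where 100% of 100 genes changed by a log2 of 1 and of 100 changed by 2 were recovered, with 7 false calls. The simulation gave every gene the same noise, smaller than the spread of *Dnmt1*, *Dnmt3b*, *Dnmt3l* and *Uhrf1* in the real fit. Only genes of higher level were changed, and the days did not differ. It therefore does not show how well a change is recovered in members of low level or wider spread. Tables were handled in Python 3.11.15 with pandas 2.3.3. Named genes were the members, at most 4 per list (the 2 highest and 2 lowest called in a comparison), the 3 genes most like each member and the factor genes. Exons are from GENCODE M21 and promoter windows from RefSeq. Alternatives tried were other pseudocounts, upper-quartile scaling, other limits on low values, no term for day, and leaving out libraries.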

Additional observations from a re-analysis of the deposited data

Results flagged for a closer look

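For 4 of the 24 pairs of a member and a treatment, the treated library was above uFIB on one day and below it on the other, and all 4 were in FGL. The differences in log2(FPKM + 1) at day 12 and day 21 were 1.08 and -0.32 for *Uhrf1*, 0.39 and -0.19 for *Dnmt1*, 0.29 and -0.11 for *Tet3*, and 0.017 and -0.061 for *Dnmt3a*. With 1 library per treatment and day, the difference between the days was not tested. Whole groups of 4 or more samples do not occur here, so no library could be examined for standing apart from its group.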

How the results depend on the processing

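For the stages no paired analysis was possible because the deposited values combine the replicates. The MEF libraries were matched by day, which was a term of the fit, and without it the members called were the same in SL, SFGL and FGL.

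The 4 members called in SL and in SFGL were called with a pseudocount of 0.1, without a filter, after upper-quartile scaling and without the libraries labelled FGL. *Dnmt3l* is among these 4, with the limit given above for its filter. Leaving out 1 library each gave 3 to 4 members in SL, 4 in SFGL and 0 in FGL and between the days. Where this left 1 library of a treatment, that library was assumed to vary like the others. Over all alternatives the adjusted p in limma ran from 0.00234 to 0.0222 for *Uhrf1*, from 0.00186 to 0.0191 for *Dnmt1*, from 0.00455 to 0.0446 for *Dnmt3l* and from 0.00962 to 0.0690 for *Tet3* in SL. Leaving out 1 library each moved the number of all genes called to between 3756 and 6408 in SL, 0 and 22 in FGL and 6 and 163 between the days. The lowest SL number, 3756, came without the SL library of day 12, followed by 3859 without the uFIB library of day 12 and 4068 without the SL library of day 21. In FGL it was 22 without the library of day 21, 0 without either uFIB library and 1 without any other library. Without a filter, 1 gene was called in FGL and 93 between the days, without a term for day 1 in FGL, and without both FGL libraries 9 between the days. With at least 2-fold, 2960 genes were called in SL and 3646 in SFGL.

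The scaled values of the gene lists and of the sum of *Dnmt3a* and *Dnmt3b* were added after seeing the data. Of the stage results, the members called from ESC to MES were the same 3 in every alternative. A pseudocount of 0.1 or 0.001 added *Tet3* from MES to HB. With at least 5 FPKM, 1 member (*Tet3*) was left from HB to HP and *Tet1* was lost from HP to MAC. The number of all genes from ESC to MES became 2368 and 2467 with those pseudocounts, and from MES to HB 1004 and 1057, and 361 with at least 5 FPKM, which left 1162 from HB to HP. No called difference changed sign. Of 84 recomputed member differences, 20 moved by more than 0.5, and the cause was not tested beyond the construction of each. Depth limits what can be said of members under 1 FPKM, and no error can be given for any stage.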

Other observations

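*Icosl*, the ligand of a costimulatory receptor and a gene downstream of *Dnmt3l* on chromosome 10, was looked at after the values of *Dnmt3l* were seen. It had 0.536 (uFIB), 4.09 (SL), 3.71 (SFGL) and 0.634 (FGL) FPKM at day 12, and 0.705, 2.76, 3.74 and 0.694 at day 21. *Icosl* reached the filter on low values only through the SL and SFGL libraries, so its values are given without a test. Over the stages *Icosl* had 5.08 (ESC), 1.49 (MES), 0.752 (HB), 0.137 (HP) and 0.477 (MAC) FPKM.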
